A study of Mus musculus with 12 samples.

Results

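The 38 genes described here encode proteins that transcribe ribosomal DNA or build ribosomes in the nucleolus, and they were taken from a named list of symbols. All 38 symbols matched 1 row each of the 55471 gene rows, and all 38 were among the 17197 genes that passed the filter on low counts, with a lowest count of 522 reads, for Rrp12. RNA sequencing of total RNA measured them in 12 lines of Ba/F3, a mouse cell line labelled pro-B that needs interleukin-3 (IL-3) unless an oncogene takes over its signal. The BCR-ABL1 lines and the SFPQ-ABL1 lines were transformed by the fusion they are named for, each with the tyrosine kinase ABL1 as one partner, and were kept without IL-3. The MSCV lines carried the empty vector and grew with 0.5 ng/ml murine IL-3. Each group held 4 untreated lines, which the study describes as biologically independent. Against MSCV the fusion and the lack of IL-3 come together and cannot be told apart, whereas both fusion groups shared the medium without IL-3.

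Ribosome production starts in the nucleolus, where RNA polymerase I copies the ribosomal DNA repeats into a long precursor RNA. Small nucleolar RNAs (snoRNAs) and their core proteins modify the precursor, the small subunit processome folds and cuts the part that becomes the 40S subunit, and further factors assemble the 60S subunit. The pathway is tied to growth, and MYC, which binds the E-box sequence CACGTG with its partner MAX, is known to drive many of its genes.

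The promoters below are examples from the 15 of the 38 genes that passed the test in both comparisons with BCR-ABL1. Rrn3 was the only one of the 5 RNA polymerase I genes among the 38 to do so, and Utp4, Wdr43 and Utp14a are small subunit genes. As picked examples they do not stand for the share of promoters with CACGTG, which is given after them. Each runs 5′ to 3′ from 250 bases before to 50 bases after the start site in RefSeq on GRCm38.p6, the patch release of mm10, with CACGTG, where present, in capitals. Rrn3 lies at chr16:13780449-13780748 on the plus strand, Utp4 at chr8:106893390-106893689 on the plus strand, Wdr43 at chr17:71615965-71616264 on the plus strand and Utp14a at chrX:48256684-48256983 on the plus strand.
Rrn3: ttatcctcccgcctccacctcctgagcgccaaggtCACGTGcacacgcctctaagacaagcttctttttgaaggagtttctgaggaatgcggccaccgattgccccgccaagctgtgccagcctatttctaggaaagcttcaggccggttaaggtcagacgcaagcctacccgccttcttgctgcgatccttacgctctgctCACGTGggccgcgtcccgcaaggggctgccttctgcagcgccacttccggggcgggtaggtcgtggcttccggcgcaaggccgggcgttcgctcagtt
Utp4: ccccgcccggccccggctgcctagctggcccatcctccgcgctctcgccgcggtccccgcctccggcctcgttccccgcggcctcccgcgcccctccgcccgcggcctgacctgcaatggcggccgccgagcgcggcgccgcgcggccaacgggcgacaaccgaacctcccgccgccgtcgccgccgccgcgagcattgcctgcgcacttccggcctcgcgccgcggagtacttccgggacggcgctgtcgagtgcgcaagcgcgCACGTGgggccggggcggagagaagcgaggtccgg
Wdr43: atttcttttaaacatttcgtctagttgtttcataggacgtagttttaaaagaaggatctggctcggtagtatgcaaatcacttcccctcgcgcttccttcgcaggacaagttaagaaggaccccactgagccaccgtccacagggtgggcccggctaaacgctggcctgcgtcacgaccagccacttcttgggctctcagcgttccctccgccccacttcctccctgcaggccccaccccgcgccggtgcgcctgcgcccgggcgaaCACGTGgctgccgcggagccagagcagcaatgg
Utp14a: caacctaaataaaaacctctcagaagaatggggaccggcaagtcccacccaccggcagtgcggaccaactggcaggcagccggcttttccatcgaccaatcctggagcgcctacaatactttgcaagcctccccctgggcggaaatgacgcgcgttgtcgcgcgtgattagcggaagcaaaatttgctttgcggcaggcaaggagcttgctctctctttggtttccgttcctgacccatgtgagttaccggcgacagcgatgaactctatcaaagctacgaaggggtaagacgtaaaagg
The letters CACGTG, which read the same on both strands, occurred in 9 of the 32 genes with a promoter in the RefSeq table (28.1%), against 9.69% of the 10402 tested genes with one and 7.15% of all 32851 promoters. The share was 23.5% among other small subunit genes, 26.7% among RNA polymerase III genes and 14.3% among other 60S genes. It was 10.0% among other RNA polymerase I genes, 8.62% among ribosomal protein genes and 0% among 9 other snoRNA protein genes. Rrn3 held a pair, at bases -215 and -48 from the start site, and Nop2 held one at -60. In Pes1, Utp4, Wdr43, Tsr1, Ltv1, Utp20 and Mybbp1a the match began 2 to 40 bases after the start site, and Utp14a held none in this window. Other motifs, searched on both strands, were CCGGAAG in 10 of 32 genes (31.2%, against 18.7% of tested genes), GGGCGG in 27 (84.4%, against 61.4%), TCGCGA in 4 (12.5%, against 5.09%) and TATAAA in 2 (6.25%, against 7.30%). For CCGGAAG the related lists had higher shares than the 38 genes, at 39.7% or more in each of 6. Promoters were not matched for Npm1, Fbl, Bop1, Nol6, Rrp12 and Rrs1.

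Libraries held 59355018 to 80616227 gene counts. Levels are given in CPM, counts scaled to the size of the library with TMM factors. Before those factors 1 CPM stood for about 59.4 to 80.6 counts. Of 14 early B lineage markers, Cd79a and Cd79b were at 1 CPM or more and Pax5 and Ebf1 were below it. Their summed level was 49.8 to 72.2 CPM in BCR-ABL1 lines, 85.4 to 98.9 CPM in SFPQ-ABL1 lines and 131 to 153 CPM in MSCV lines, and its part in the results below was not tested. None of 7 fibroblast markers reached 1 CPM. The summed levels of 10 granulocyte and monocyte, 7 mast cell, 9 T and NK cell and 8 erythroid and megakaryocyte markers overlapped between all groups. Of single markers, chosen after their values were seen, Pf4 had 3.59 to 12.97 CPM in BCR-ABL1 lines, 0.0365 to 0.195 CPM in SFPQ-ABL1 lines and 0.0538 to 0.292 CPM in MSCV lines. Klf1 had 12.3 to 29.03 CPM in BCR-ABL1 lines, 28.7 to 63.98 CPM in SFPQ-ABL1 lines and 36.3 to 73.0 CPM in MSCV lines. Their part in the results was not tested either. Because the samples are bulk RNA, a lower level of a transcript in all cells and a smaller number of cells that express it cannot be told apart.

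MSCV line 1 and SFPQ-ABL1 line 1 stood apart from the other lines of their groups. MSCV line 1 was the highest MSCV line for 36 of the 38 genes, and SFPQ-ABL1 line 1 was the highest SFPQ-ABL1 line for 33. On the log2 CPM scale, with the mean of the MSCV lines set to 0, the median over the 38 genes was 0.83, 0.69, 0.83 and 0.81 in BCR-ABL1 lines 1 to 4. It was 0.72, 0.42, 0.18 and 0.20 in SFPQ-ABL1 lines 1 to 4, and 0.49, 0.06, -0.25 and -0.22 in MSCV lines 1 to 4. The BCR-ABL1 lines lay close together and above all others but SFPQ-ABL1 line 1, and MSCV line 1 lay above SFPQ-ABL1 lines 2 to 4. The 38 genes together took 0.650% to 0.719% of all counts in BCR-ABL1 lines, 0.457% to 0.659% in SFPQ-ABL1 lines and 0.357% to 0.543% in MSCV lines.

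**Figure D1:**
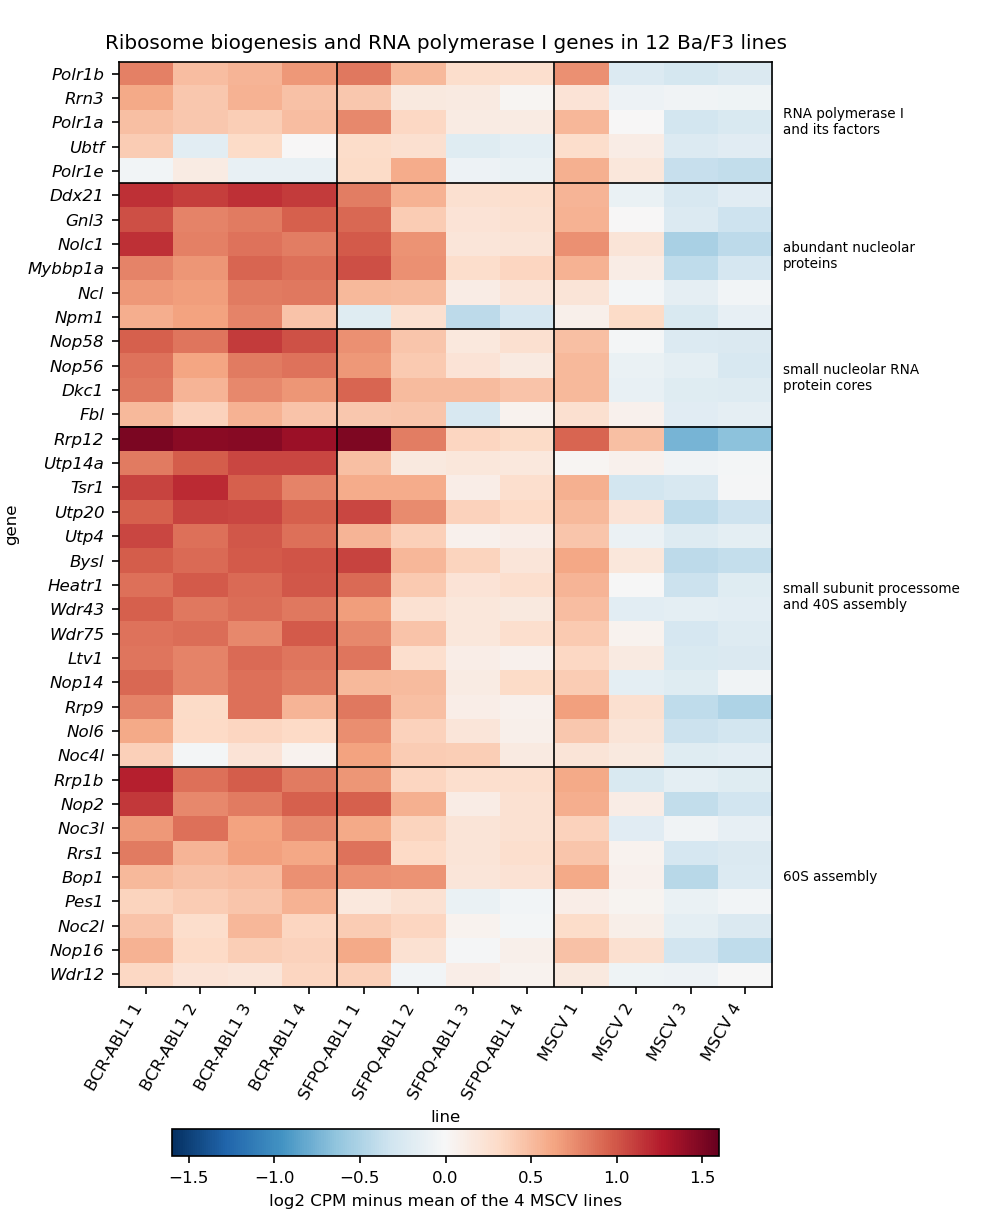
Colours give the log2 CPM of each of the 38 genes (rows, grouped by role) in each of the 12 lines (columns), minus the mean of the 4 MSCV lines. BCR-ABL1 lines are high for nearly all genes, while line 1 of SFPQ-ABL1 and line 1 of MSCV are higher than lines 3 and 4 of their own groups.

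In the SFPQ-ABL1 and MSCV groups the spread between lines was wider for these genes than for all genes at or above their lowest level. No upper limit on level was set. The median SD of log2 CPM over the 38 genes was 0.108 in BCR-ABL1 lines, 0.270 in SFPQ-ABL1 lines and 0.351 in MSCV lines. Over the 7305 genes at or above the level of the lowest of the 38, it was 0.137 in BCR-ABL1 lines, 0.139 in SFPQ-ABL1 lines and 0.164 in MSCV lines.

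Most of the 38 genes were higher in BCR-ABL1 lines than in MSCV lines, with the smallest share called among RNA polymerase I genes (1 of 5). By edgeR's quasi-likelihood test with Benjamini-Hochberg adjustment over all genes, 28 of the 38 rose (73.7%) and 0 fell, where 15.8% of all tested genes rose and 16.3% fell. A further 5 had an unadjusted p under 0.05, which 42.9% of all tested genes met, and Polr1e was the sole gene with a negative log2 fold change. The median log2 fold change was 0.76, which is 1.69-fold, against -0.01 over all tested genes. In 28 genes every BCR-ABL1 line lay above every MSCV line, where 15.7% of all genes did so. With MSCV line 1 left out 35 of the 38 rose, with a median of 0.93. The share of all tested genes that rose in that fit is not given here.

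In SFPQ-ABL1 lines these genes mostly lay between the other groups, and the comparison with MSCV called none of them. Of the 38, 37 had a positive log2 fold change against MSCV with a median of 0.35, where 49.7% of all tested genes had one. An unadjusted p under 0.05 was met by 16 of the 38 and by 18.6% of all tested genes. After adjustment 0.814% of all genes rose and 0.977% fell in this comparison. The DESeq2 test called 1 gene, Dkc1, and limma-voom called 0. With MSCV line 1 left out 10 rose, namely Ddx21, Dkc1, Heatr1, Mybbp1a, Noc3l, Nop14, Nop56, Nop58, Polr1b and Rrp1b. How many of all genes rose in that fit is given below only as a range over single lines left out. Over all genes 140 rose and 168 fell in the fit with all lines. When all libraries were compared without scaling factors, 210 rose and 114 fell.

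Set against BCR-ABL1, which differs from SFPQ-ABL1 in the fusion but not in IL-3, 15 of the 38 genes fell in SFPQ-ABL1 lines and 0 rose, where 12.8% of all genes fell and 13.2% rose. The median log2 fold change was -0.38, against 0.01 over all genes. Over all genes 2268 rose and 2203 fell, a split that became 2841 and 1750 without scaling factors, and 10 of the 38 then fell. All 15 were among the 28 that rose in BCR-ABL1 against MSCV, and both comparisons share the BCR-ABL1 lines. The mean of the SFPQ-ABL1 lines lay between those of BCR-ABL1 and MSCV lines for 35 genes, above both for Polr1e and Noc4l, and below both for Npm1. Of the 15 calls, those of Npm1, Utp14a, Utp4 and Pes1 remained under each of 21 alternatives, and the others were lost under 1 to 13 of them. The count of 15 became 4 without SFPQ-ABL1 line 3, 6 without SFPQ-ABL1 line 4, 8 without BCR-ABL1 line 3 and 9 without BCR-ABL1 line 1. It became 7 in the table of exon counts, and 23 when line 1 of both SFPQ-ABL1 and MSCV was left out. For the fits with lines left out, the share of all genes that fell is not given here.

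**Figure D2:**
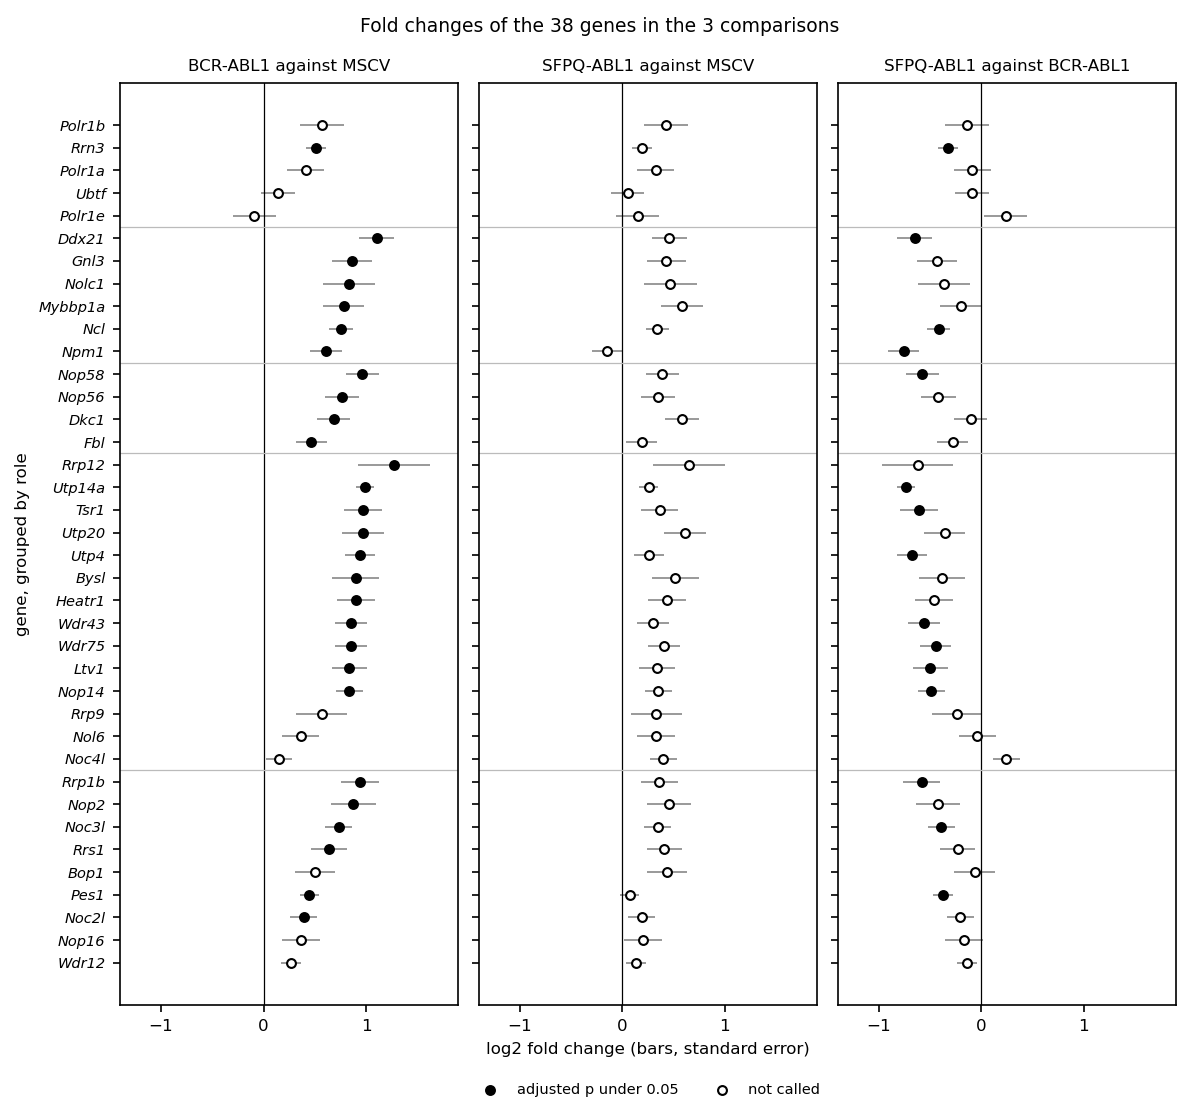
Points give the log2 fold change of each of the 38 genes (rows, grouped by role) and bars its standard error, for BCR-ABL1 against MSCV (left), then SFPQ-ABL1 against MSCV (middle) and at the right SFPQ-ABL1 against BCR-ABL1. Filled points passed an adjusted p of 0.05, which 28 genes did on the left, 0 in the middle and 15 on the right.

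Of the 5 genes of RNA polymerase I and its factors, 1 rose in BCR-ABL1 against MSCV (20%), near the 15.8% of all tested genes that rose. The median log2 fold change of the 5 was 0.41. The gene called was Rrn3, which encodes TIF-IA, the factor that makes the polymerase competent to start. Rrn3 had 88.3, 78.3, 84.8 and 79.97 CPM in BCR-ABL1 lines, 77.9, 64.5, 63.7 and 59.0 CPM in SFPQ-ABL1 lines and 67.0, 54.4, 55.5 and 55.2 CPM in MSCV lines. Every BCR-ABL1 line lay above every SFPQ-ABL1 and MSCV line, with the gap to SFPQ-ABL1 line 1 being the smallest. Its log2 fold change was 0.51 ± 0.10 (SE, adjusted p = 0.00191) in BCR-ABL1 against MSCV. In SFPQ-ABL1 against BCR-ABL1 it was -0.32 ± 0.10 (adjusted p = 0.0311), a call that was lost under 8 of 21 alternatives, which left out SFPQ-ABL1 line 2, 3 or 4 or BCR-ABL1 line 1 or 3, or used no scaling factors, no filter or the exon counts.

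Neither of the catalytic polymerase subunits passed the test with all lines, and both did so with MSCV line 1 left out. Polr1b, the second largest subunit, had 65.3, 52.2, 53.98 and 60.03 CPM in BCR-ABL1 lines, 66.9, 53.3, 45.01 and 44.8 CPM in SFPQ-ABL1 lines, and 61.8, 32.0, 30.5 and 31.6 CPM in MSCV lines. Lines 2 to 4 of MSCV were lower than every other line, while MSCV line 1 lay within the range of the BCR-ABL1 lines. In BCR-ABL1 against MSCV the log2 fold change was 0.57 ± 0.21 (adjusted p = 0.0576), and 0.89 (adjusted p = 0.000758) without MSCV line 1. The gene was called under 6 of 21 alternatives, DESeq2 and limma-voom included. Polr1a, the largest subunit, had 59.1, 56.8, 55.3 and 59.7 CPM in BCR-ABL1 lines, 71.8, 53.1, 46.4 and 46.2 CPM in SFPQ-ABL1 lines and 61.0, 42.3, 34.6 and 35.7 CPM in MSCV lines. In BCR-ABL1 against MSCV the log2 fold change of Polr1a was 0.41 ± 0.18 (adjusted p = 0.0952), and the groups overlapped through MSCV line 1. It was called under 3 of 21 alternatives, among them the fit without MSCV line 1.

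Ubtf and Polr1e were called in none of the 3 comparisons, and their groups overlapped. Ubtf, the factor UBF that keeps ribosomal DNA open and active, had 311, 207, 288 and 234 CPM in BCR-ABL1 lines, 286, 280.1, 204 and 209.7 CPM in SFPQ-ABL1 lines and 285, 254, 201 and 206 CPM in MSCV lines. Its log2 fold changes were 0.14 in BCR-ABL1 against MSCV, 0.05 in SFPQ-ABL1 against MSCV and -0.09 in SFPQ-ABL1 against BCR-ABL1, with adjusted p of 0.552 to 0.901. The 95% interval in BCR-ABL1 against MSCV ran from -0.18 to 0.46. Polr1e, the PAF53 subunit, had 49.2, 55.5, 46.5 and 46.6 CPM in BCR-ABL1 lines, 62.8, 76.4, 47.6 and 46.9 CPM in SFPQ-ABL1 lines and 75.2, 57.5, 39.2 and 38.7 CPM in MSCV lines. Lines 1 and 2 of SFPQ-ABL1 and of MSCV were above lines 3 and 4, and its log2 fold change in BCR-ABL1 against MSCV was -0.09 ± 0.21 (adjusted p = 0.777).

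The 6 abundant nucleolar proteins all rose in BCR-ABL1 lines against MSCV, where 15.8% of all tested genes rose. Ncl, nucleolin, which binds the ribosomal RNA precursor and nucleolar chromatin, had 1508, 1489, 1666 and 1678 CPM in BCR-ABL1 lines. It had 1336, 1332, 1014 and 1073 CPM in SFPQ-ABL1 lines and 1079, 920.1, 850.0 and 911 CPM in MSCV lines. All BCR-ABL1 lines were above all others, and SFPQ-ABL1 lines 1 and 2 were above all MSCV lines. The log2 fold change was 0.75 ± 0.11 (adjusted p = 0.000361) in BCR-ABL1 against MSCV, 0.34 ± 0.11 (adjusted p = 0.134) in SFPQ-ABL1 against MSCV and -0.42 ± 0.11 (adjusted p = 0.0167) in SFPQ-ABL1 against BCR-ABL1. The last call was lost without SFPQ-ABL1 line 3 or 4 and in the exon counts.

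Ddx21, an RNA helicase that works on both ribosomal RNA transcription and processing, had the largest log2 fold change of the 6. It had 442, 422, 439.9 and 425 CPM in BCR-ABL1 lines, 346, 288, 234 and 236 CPM in SFPQ-ABL1 lines and 286, 182, 164 and 173 CPM in MSCV lines. The BCR-ABL1 lines differed by little from each other and lay above all others, and MSCV line 1 was above SFPQ-ABL1 lines 3 and 4. Ddx21 rose in BCR-ABL1 against MSCV by a log2 fold change of 1.10 ± 0.17 (adjusted p = 0.000473), which is 2.15-fold. It fell in SFPQ-ABL1 against BCR-ABL1 by 0.65 ± 0.17 on the log2 scale (adjusted p = 0.0146), a call lost without SFPQ-ABL1 line 3 (adjusted p = 0.0507). Against MSCV its log2 fold change in SFPQ-ABL1 was 0.46 ± 0.17 (adjusted p = 0.175).

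Npm1, nucleophosmin, a chaperone for ribosomal proteins and histones, was the one gene for which SFPQ-ABL1 lines had the lowest mean. It had 697, 728, 809.6 and 640.4 CPM in BCR-ABL1 lines, 409, 559, 349 and 386 CPM in SFPQ-ABL1 lines and 493, 575, 392.3 and 424 CPM in MSCV lines. All BCR-ABL1 lines lay above all others, and the other groups overlapped. Npm1 had a log2 fold change of 0.61 ± 0.15 (adjusted p = 0.00881) in BCR-ABL1 against MSCV, -0.15 ± 0.15 (adjusted p = 0.644) in SFPQ-ABL1 against MSCV and -0.76 ± 0.15 (adjusted p = 0.00355) in SFPQ-ABL1 against BCR-ABL1. The level of Npm1 is uncertain, because 8 processed pseudogene rows with at least 90% identity over 200 bases held 69.9% to 74.7% of the combined counts of gene and pseudogenes. With those rows added to Npm1 the log2 fold changes were 0.69 (adjusted p = 0.00227), -0.11 (adjusted p = 0.710) and -0.80 (adjusted p = 0.00138) in the same order.

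The other nucleolar genes rose in BCR-ABL1 lines and were not called in SFPQ-ABL1 lines in either comparison. Gnl3, nucleostemin, a GTPase of the nucleolus, rose by 0.86 ± 0.19 on the log2 scale (adjusted p = 0.00453). Nolc1, the snoRNP chaperone Nopp140, rose by 0.83 ± 0.26 (adjusted p = 0.0250), and lost its call without BCR-ABL1 line 1 or MSCV line 3 or 4. Mybbp1a, a nucleolar partner of MYB proteins, had 297, 279, 326 and 315 CPM in BCR-ABL1 lines, 351, 285, 208 and 218 CPM in SFPQ-ABL1 lines and 251, 186, 129 and 143 CPM in MSCV lines. Line 1 of SFPQ-ABL1 was above all 4 BCR-ABL1 lines, and BCR-ABL1 and MSCV lines did not overlap. Its log2 fold change was 0.78 ± 0.20 (adjusted p = 0.0107) in BCR-ABL1 against MSCV and 0.58 ± 0.20 (adjusted p = 0.153) in SFPQ-ABL1 against MSCV.

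**Figure D3:**
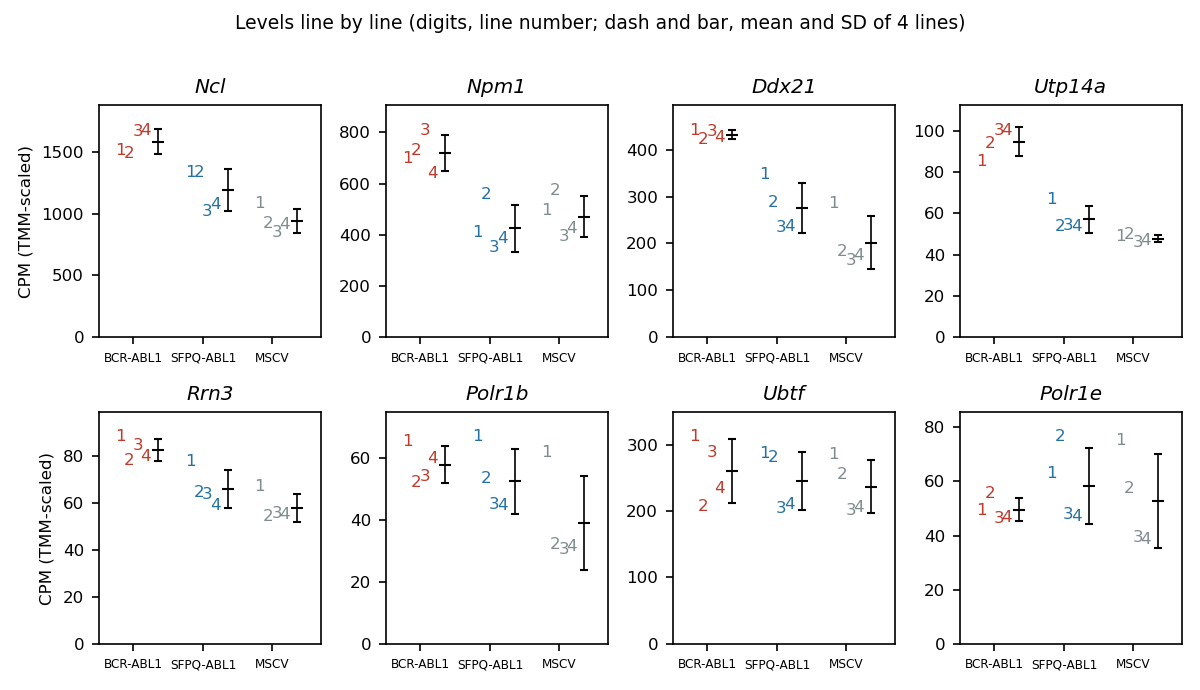
Digits give the level in CPM of 8 genes in lines 1 to 4 of each group (BCR-ABL1, SFPQ-ABL1, MSCV), with a dash for the mean and a bar for the SD of 4 lines, and axes that start at 0. Ncl, Npm1, Ddx21, Utp14a and Rrn3 show no overlap between BCR-ABL1 and MSCV lines, while Polr1b, Ubtf and Polr1e do.

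The named list held 4 core proteins of snoRNPs, Fbl, Nop56, Nop58 and Dkc1, and these 4 rose in BCR-ABL1 lines against MSCV. They do not stand for all snoRNP proteins, since 3 of 10 others, counted below, rose in that comparison. Of the 4, Nop58 alone fell in SFPQ-ABL1 against BCR-ABL1. Nop58, a core protein of box C/D particles, had 377, 350.7, 421 and 394 CPM in BCR-ABL1 lines, 323, 264, 218 and 232 CPM in SFPQ-ABL1 lines and 269.8, 190.1, 166 and 166 CPM in MSCV lines. The BCR-ABL1 lines did not overlap either group. Nop58 had a log2 fold change of 0.96 ± 0.16 (adjusted p = 0.000777) in BCR-ABL1 against MSCV and -0.57 ± 0.16 (adjusted p = 0.0198) in SFPQ-ABL1 against BCR-ABL1, the second being lost without SFPQ-ABL1 line 3 or 4 or BCR-ABL1 line 3 and in the exon counts. Nop56, its partner in the same particles, had a log2 fold change of 0.76 ± 0.17 (adjusted p = 0.00390) in BCR-ABL1 against MSCV, with 19.3% to 31.5% of its combined counts on 6 near-identical pseudogene rows.

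Dkc1, dyskerin, the pseudouridine synthase of box H/ACA particles, had the smallest adjusted p of the 38 in SFPQ-ABL1 against MSCV. It had 255, 207, 241 and 231 CPM in BCR-ABL1 lines, 271, 202, 203 and 195 CPM in SFPQ-ABL1 lines and 204, 131, 125 and 123 CPM in MSCV lines. SFPQ-ABL1 line 1 was the highest of all lines, and MSCV line 1 lay just above SFPQ-ABL1 lines 2 to 4. The log2 fold change was 0.58 ± 0.16 (adjusted p = 0.0865) in SFPQ-ABL1 against MSCV and 0.68 ± 0.16 (adjusted p = 0.00631) in BCR-ABL1 against MSCV. Fbl, fibrillarin, the methyltransferase of box C/D particles, had 81.9, 73.5, 84.2 and 78.5 CPM in BCR-ABL1 lines, 77.0, 77.95, 47.7 and 59.6 CPM in SFPQ-ABL1 lines and 68.4, 60.1, 50.2 and 51.5 CPM in MSCV lines. Its log2 fold change of 0.47 ± 0.15 (adjusted p = 0.0290) in BCR-ABL1 against MSCV was not called without BCR-ABL1 line 1, 3 or 4 or MSCV line 3 or 4.

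Several of these genes also host snoRNAs in their introns. GENCODE placed 21 snoRNAs on the same strand within 7 of the 38 genes (18.4%), namely Ncl, Nop56, Nop58, Dkc1, Wdr43, Tsr1 and Gnl3, against 1.65% of the 12096 protein-coding genes tested. All 7 were among the 28 genes that rose in BCR-ABL1 against MSCV, which make up 73.7% of the 38. Exons of some of these genes overlap the annotated snoRNAs, so their counts may include reads from them.

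Of the 14 small subunit processome and 40S assembly factors, 11 rose (78.6%) in BCR-ABL1 against MSCV and 7 fell (50%) in SFPQ-ABL1 against BCR-ABL1. Of all tested genes 15.8% rose and 12.8% fell in these comparisons, in the same order. The median log2 fold changes of the 14 were 0.88 and -0.47. Utp14a, a processome subunit whose yeast counterpart activates the RNA helicase Dhr1, had the smallest adjusted p of the 38 in both comparisons. It lies at chrX:48256862-48282453 on mm10 and had 85.1, 93.8, 100.5 and 100.2 CPM in BCR-ABL1 lines, 66.8, 53.4, 54.2 and 53.8 CPM in SFPQ-ABL1 lines and 48.8, 49.9, 45.9 and 46.8 CPM in MSCV lines. The 3 groups did not overlap, and line 1 was high in SFPQ-ABL1 but not in MSCV. Utp14a had a log2 fold change of 0.99 ± 0.09 (adjusted p = 1.88e-05) in BCR-ABL1 against MSCV, -0.73 ± 0.09 (adjusted p = 0.000216) in SFPQ-ABL1 against BCR-ABL1 and 0.25 ± 0.09 (adjusted p = 0.158) in SFPQ-ABL1 against MSCV. It was the sole gene of the 38 with every SFPQ-ABL1 line above every MSCV line, where 859 of the 17197 tested genes (5.0%) were so.

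Utp4 and Wdr43 belong to the t-UTP or UTP-A part of the processome, which joins the precursor first. Utp4, known as cirhin in human, had 126, 111, 119.9 and 111 CPM in BCR-ABL1 lines, 87.3, 77.9, 62.8 and 64.4 CPM in SFPQ-ABL1 lines and 81.7, 56.5, 52.1 and 53.995 CPM in MSCV lines. BCR-ABL1 lines were apart from both other groups, which overlapped through line 1 of MSCV. Utp4 had a log2 fold change of 0.94 ± 0.15 (adjusted p = 0.000491) in BCR-ABL1 against MSCV and -0.68 ± 0.15 (adjusted p = 0.00494) in SFPQ-ABL1 against BCR-ABL1, and both calls remained under each of 21 alternatives. Wdr43 rose by 0.85 ± 0.16 on the log2 scale in BCR-ABL1 against MSCV (adjusted p = 0.00132) and fell by 0.55 ± 0.16 in SFPQ-ABL1 against BCR-ABL1 (adjusted p = 0.0199). The fall of Wdr43 was lost without SFPQ-ABL1 line 3 or 4 and in the exon counts.

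Both Rrp12 and Utp20 rose in BCR-ABL1 lines and lay between the groups in SFPQ-ABL1 lines. Rrp12, an export factor for both subunits in yeast, had the largest log2 fold change of the 38 in BCR-ABL1 against MSCV, 1.27 ± 0.35 (adjusted p = 0.0148), which is 2.41-fold. It had 36.1, 34.5, 34.9 and 32.6 CPM in BCR-ABL1 lines, 35.8, 22.4, 16.1 and 15.7 CPM in SFPQ-ABL1 lines and 24.1, 17.7, 7.55 and 8.01 CPM in MSCV lines. Lines 3 and 4 were lower than lines 1 and 2 in both SFPQ-ABL1 and MSCV, and the standard error was the widest of the 38. Utp20, a long helical repeat protein of the processome, had 54.9, 59.5, 58.9 and 54.9 CPM in BCR-ABL1 lines, 58.9, 47.7, 36.4 and 35.1 CPM in SFPQ-ABL1 lines and 40.3, 32.9, 21.3 and 22.4 CPM in MSCV lines. For Utp20 the log2 fold change in BCR-ABL1 against MSCV was 0.97 ± 0.20 (adjusted p = 0.00323).

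Nop14, a processome scaffold, had 79.6, 73.2, 77.95 and 75.4 CPM in BCR-ABL1 lines, 60.6, 59.8, 46.3 and 52.1 CPM in SFPQ-ABL1 lines and 56.2, 37.8, 37.0 and 40.6 CPM in MSCV lines. BCR-ABL1 lines were again above all others, and MSCV line 1 was above SFPQ-ABL1 lines 3 and 4. Nop14 rose by 0.83 ± 0.13 on the log2 scale in BCR-ABL1 against MSCV (adjusted p = 0.000507) and fell by 0.48 ± 0.13 in SFPQ-ABL1 against BCR-ABL1 (adjusted p = 0.0167). Tsr1, Ltv1 and Wdr75 behaved likewise, with log2 fold changes of 0.97, 0.83 and 0.85 in BCR-ABL1 against MSCV and of -0.61, -0.50 and -0.44 in SFPQ-ABL1 against BCR-ABL1. The call of Wdr75 in SFPQ-ABL1 against BCR-ABL1 lay at the threshold (adjusted p = 0.049999), and Ltv1 was close to it (adjusted p = 0.0489). The falls were lost under 13 of 21 alternatives for Ltv1, 12 for Wdr75, 6 for Tsr1 and 2 for Nop14, and for each of the 4 genes this included the exon counts and the fit without SFPQ-ABL1 line 3. Heatr1 and Bysl rose in BCR-ABL1 lines by 0.90 each and were not called in SFPQ-ABL1 against BCR-ABL1, where Heatr1 was called lower under 6 of 21 alternatives and Bysl under 1. Rrp9, Nol6 and Noc4l were called in none of the comparisons. In BCR-ABL1 against MSCV Rrp9 was called under 4 and Nol6 under 3 of 21 alternatives, each time including the fit without MSCV line 1. Noc4l, whose yeast counterpart pairs with Nop14 in 40S maturation, had 83.3, 70.9, 70.4 and 59.0 CPM in SFPQ-ABL1 lines, 69.5, 52.0, 62.1 and 55.3 CPM in BCR-ABL1 lines and 61.5, 59.5, 46.6 and 47.7 CPM in MSCV lines. Its SFPQ-ABL1 lines were mostly the higher ones but overlapped both other groups. The log2 fold change of Noc4l was 0.25 ± 0.13 in SFPQ-ABL1 against BCR-ABL1 (adjusted p = 0.184) and 0.40 ± 0.13 in SFPQ-ABL1 against MSCV (adjusted p = 0.131).

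Among the 60S assembly factors 6 of 9 rose (66.7%) in BCR-ABL1 against MSCV, where 15.8% of all tested genes rose. In SFPQ-ABL1 against BCR-ABL1 3 of 9 fell (33.3%), where 12.8% of all tested genes fell. Of the PeBoW complex, which matures the large subunit RNAs, Pes1 was called, and its partners Bop1 and Wdr12 lay just short of the threshold. Pes1 had 136, 141, 144 and 156 CPM in BCR-ABL1 lines, 119, 126, 98.3 and 103 CPM in SFPQ-ABL1 lines and 113, 109, 98.2 and 103 CPM in MSCV lines. Its BCR-ABL1 lines were above all others, and the SFPQ-ABL1 and MSCV lines overlapped. The log2 fold change was 0.44 ± 0.09 (adjusted p = 0.00297) in BCR-ABL1 against MSCV, 0.07 ± 0.09 (adjusted p = 0.717) in SFPQ-ABL1 against MSCV and -0.37 ± 0.09 (adjusted p = 0.0110) in SFPQ-ABL1 against BCR-ABL1. In BCR-ABL1 against MSCV the log2 fold changes of Bop1 and Wdr12 were 0.50 ± 0.20 (adjusted p = 0.0708) and 0.27 ± 0.10 (adjusted p = 0.0511), and whether they differ from that of Pes1 was not tested. Wdr12 was called under 8 and Bop1 under 4 of 21 alternatives.

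Rrp1b, a nucleolar protein of 60S maturation, rose by 0.94 ± 0.18 on the log2 scale in BCR-ABL1 against MSCV (adjusted p = 0.00187) and fell by 0.58 ± 0.18 in SFPQ-ABL1 against BCR-ABL1 (adjusted p = 0.0325). Noc3l, whose yeast counterpart travels with pre-60S particles, rose by 0.73 ± 0.13 (adjusted p = 0.00105) and fell by 0.39 ± 0.13 (adjusted p = 0.0417) in the same comparisons. The fall was lost under 11 of 21 alternatives for Noc3l and under 6 for Rrp1b, which included leaving out SFPQ-ABL1 line 2, 3 or 4 or BCR-ABL1 line 1 or 3. Nop2, the cytosine methyltransferase NSUN1 of the large ribosomal RNA, rose in BCR-ABL1 against MSCV by 0.87 ± 0.22 (adjusted p = 0.00837), Rrs1 by 0.64 ± 0.17 (adjusted p = 0.0130) and Noc2l by 0.39 ± 0.13 (adjusted p = 0.0359). Noc2l lost its call under 7 of 21 alternatives, and 598 of its exonic bases overlap Samd11 on the opposite strand. Nop16 had a log2 fold change of 0.36 ± 0.19 (adjusted p = 0.152).

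Set per kilobase of merged exons (RPKM), the level of the 38 genes spanned a wide range. Npm1 averaged 269.7 ± 26.5 RPKM in BCR-ABL1 lines, 159.7 ± 34.6 RPKM in SFPQ-ABL1 lines and 177 ± 30.3 RPKM in MSCV lines (SD, n = 4 each), and was the highest of the 38 in each group, with the doubt over its pseudogenes. Ncl was next with 156 ± 9.88 RPKM in BCR-ABL1 lines, 117 ± 16.6 RPKM in SFPQ-ABL1 lines and 92.3 ± 9.57 RPKM in MSCV lines. Polr1a and Utp20 were among the 3 lowest in each group, with Polr1a at 4.86 ± 0.174 RPKM in BCR-ABL1 lines, 4.58 ± 1.01 RPKM in SFPQ-ABL1 lines and 3.66 ± 1.03 RPKM in MSCV lines.

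The exon counts gave the same direction for most pieces of these genes. In 35 of the 38 genes 344 exons reached 0.5 CPM, and none did in Heatr1, Rrp12 and Utp20. The mean of BCR-ABL1 lines was above that of MSCV lines in 328 of 344 exons, that of SFPQ-ABL1 lines was above MSCV in 303, and that of SFPQ-ABL1 lines was below BCR-ABL1 in 285. All exons of a gene went one way for 28 genes in BCR-ABL1 against MSCV, 26 of them higher. These include Noc3l, Nol6, Nop2, Polr1b, Rrn3, Rrs1 and Wdr75, for which only 1 exon was counted, so that it could not go 2 ways. The exon of Nol6 was lower (log2 ratio -0.25), while the log2 fold change of the gene was 0.36. Exons of a gene share its transcripts and are not replicates.

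Other genes of the pathway were counted from lists of related factors. Over all tested genes 15.8% rose and 16.3% fell in BCR-ABL1 against MSCV, and 13.2% rose and 12.8% fell in SFPQ-ABL1 against BCR-ABL1. Of 44 other small subunit genes, 23 rose in BCR-ABL1 against MSCV and 0 fell (median log2 fold change 0.36), and in SFPQ-ABL1 against BCR-ABL1 1 rose and 12 fell (median -0.23). The riser was Bms1, a GTPase of the processome, which averaged 149 ± 12.6 CPM in SFPQ-ABL1 lines, 111 ± 2.19 CPM in BCR-ABL1 lines and 94.5 ± 6.87 CPM in MSCV lines. Bms1 rose in SFPQ-ABL1 against MSCV by a log2 fold change of 0.66 ± 0.08 (adjusted p = 0.00640), as the only gene of that list called there. Of 49 other 60S genes 26 rose in BCR-ABL1 against MSCV and 0 fell (median 0.36). In SFPQ-ABL1 against BCR-ABL1 7 of the 49 fell (14.3%, median -0.19), near the share of all tested genes. In SFPQ-ABL1 against MSCV 1 of the 49 was called, Nsa2, which fell by 0.37 ± 0.08 on the log2 scale (adjusted p = 0.0435).

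**Figure D4:**
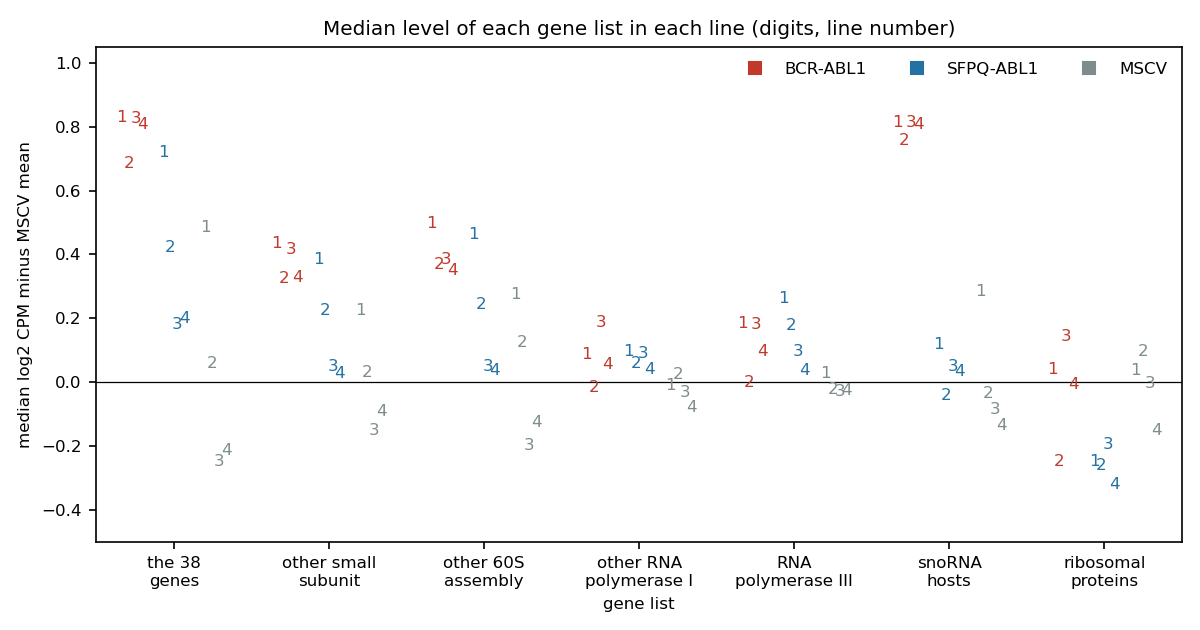
Digits give, for lines 1 to 4 of each group, the median over a gene list of log2 CPM minus the mean of MSCV lines, for the 38 genes and 6 related lists. The 38 genes and the other small subunit and 60S lists are higher in line 1 than in lines 3 and 4 of SFPQ-ABL1 and MSCV, and ribosomal proteins are below 0 in all 4 SFPQ-ABL1 lines.

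Of 10 other RNA polymerase I genes, 3 rose (30%) in BCR-ABL1 against MSCV and 0 fell (median log2 fold change 0.09), where 15.8% of all tested genes rose. Twistnb, the RPA43 subunit, whose yeast counterpart contacts Rrn3, rose by 0.54 ± 0.08 (adjusted p = 0.000279) and Taf1d, a subunit of the selectivity factor SL1, by 0.57 ± 0.08 (adjusted p = 0.000317), and Taf1a of the same factor rose by 0.52 ± 0.15 (adjusted p = 0.0191). Twistnb and Taf1d also fell in SFPQ-ABL1 against BCR-ABL1, by 0.37 ± 0.08 (adjusted p = 0.00403) and by 0.49 ± 0.08 (adjusted p = 0.00121) on the log2 scale.

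RNA polymerase III makes 5S ribosomal RNA and transfer RNAs. Of its 21 genes 7 rose (33.3%) and 1 fell (4.76%) in BCR-ABL1 against MSCV, beside 15.8% and 16.3% of all tested genes. The gene that fell was Maf1, the repressor of RNA polymerase III, with 67.0 ± 7.90 CPM in BCR-ABL1 lines, 105 ± 8.97 CPM in SFPQ-ABL1 lines and 131 ± 9.90 CPM in MSCV lines (SD, n = 4 each). Maf1 had a log2 fold change of -0.97 ± 0.10 (adjusted p = 3.94e-05) in BCR-ABL1 against MSCV and 0.64 ± 0.10 (adjusted p = 0.000791) in SFPQ-ABL1 against BCR-ABL1. Bdp1, a subunit of the initiation factor TFIIIB, rose by 0.67 ± 0.10 (adjusted p = 0.000272) and Polr3d, a polymerase subunit, by 1.10 ± 0.23 (adjusted p = 0.00299) in BCR-ABL1 against MSCV. Both fell in SFPQ-ABL1 against BCR-ABL1.

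Small nucleolar RNA host genes, noncoding transcripts whose introns give rise to snoRNAs, rose in 6 of 9 cases (66.7%) in BCR-ABL1 against MSCV. In SFPQ-ABL1 against BCR-ABL1 they fell in 7 of 9 (77.8%). Of all tested genes 15.8% rose and 12.8% fell in these comparisons, in the same order. Snhg5 averaged 164 ± 32.2 CPM in BCR-ABL1 lines, 61.8 ± 6.23 CPM in SFPQ-ABL1 lines and 56.4 ± 11.8 CPM in MSCV lines. It rose by 1.54 ± 0.16 on the log2 scale in BCR-ABL1 against MSCV (adjusted p = 3.76e-05), and fell by 1.41 ± 0.16 in SFPQ-ABL1 against BCR-ABL1 (adjusted p = 0.000141). Unlike the 38 genes, the host genes had a median near 0 in SFPQ-ABL1 against MSCV, -0.02, though the difference between the lists was not tested. Of 10 other snoRNP protein genes 3 rose in BCR-ABL1 against MSCV (30%, beside 15.8% of all tested genes). In SFPQ-ABL1 against BCR-ABL1 1 of the 10 fell (10%, near the 12.8% of all tested genes).

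Ribosomal protein genes, whose products the assembly factors put in place, had medians near or below 0. Of 79, 2 rose (Rpl12 and Rpl13a) and 1 fell (Rpl14) in BCR-ABL1 against MSCV, with a median log2 fold change of -0.02. Of all tested genes 15.8% rose and 16.3% fell there. In SFPQ-ABL1 against MSCV none was called, 67 were negative and 44 had an unadjusted p under 0.05, which 18.6% of all tested genes met, with a median of -0.25. In SFPQ-ABL1 against BCR-ABL1 19 fell (24.1%) and 0 rose, with a median of -0.22, where 12.8% of all tested genes fell and 13.2% rose. Ribosomal protein genes have many near-identical pseudogenes that may take reads, so their levels are uncertain.

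**Figure D5:**
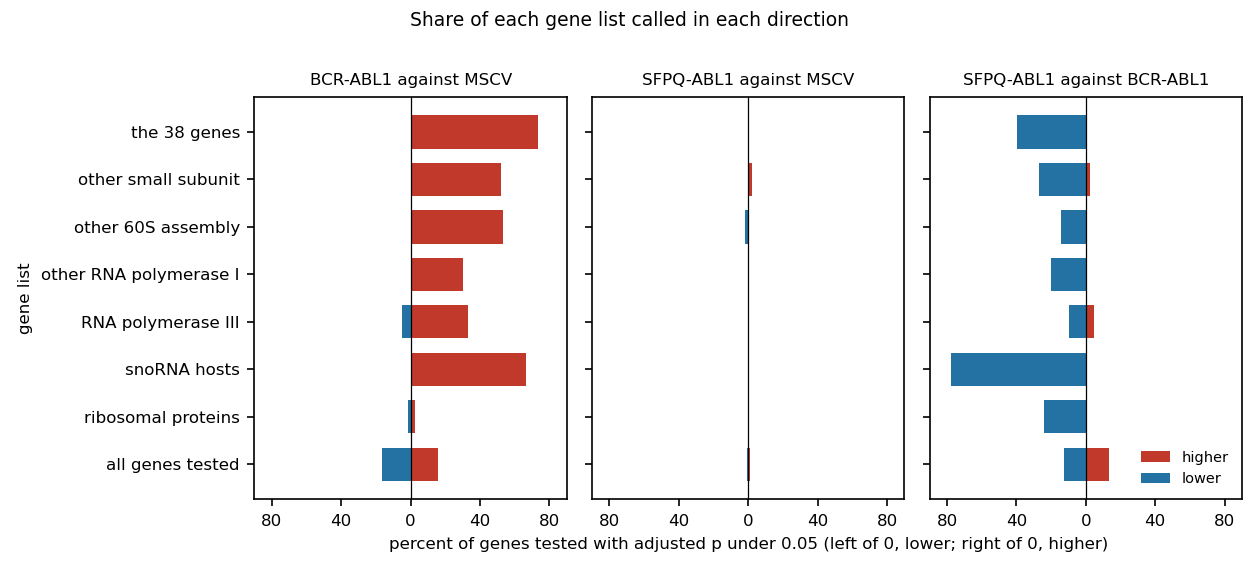
Bars give the percent of tested genes of each list that were called higher (right of 0) or lower (left of 0) with a panel for BCR-ABL1 against MSCV, then for SFPQ-ABL1 against MSCV, and last for SFPQ-ABL1 against BCR-ABL1. In the left panel 73.7% of the 38 genes and 66.7% of the host genes are called higher, and 2.53% of the ribosomal protein genes.

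Genes of the MYC network were called in both directions. Myc had 277, 220.1, 254 and 277 CPM in BCR-ABL1 lines, 365, 268, 331 and 329.7 CPM in SFPQ-ABL1 lines and 388, 228, 347 and 408 CPM in MSCV lines. The BCR-ABL1 lines were thus mostly the lower ones, and line 2 was the lowest of each group. The log2 fold change of Myc was -0.41 ± 0.16 (adjusted p = 0.0661) in BCR-ABL1 against MSCV, -0.08 ± 0.16 (adjusted p = 0.824) in SFPQ-ABL1 against MSCV and 0.33 ± 0.16 (adjusted p = 0.149) in SFPQ-ABL1 against BCR-ABL1. Of 10 tested genes of the network, 2 rose (20%) and 3 fell (30%) in BCR-ABL1 against MSCV, where 15.8% of all tested genes rose and 16.3% fell. Mxd4, which competes with MYC for MAX, averaged 44.8 ± 3.66 CPM in BCR-ABL1 lines, 64.3 ± 6.27 CPM in SFPQ-ABL1 lines and 90.03 ± 7.78 CPM in MSCV lines. It fell in BCR-ABL1 against MSCV by 1.01 ± 0.10 (adjusted p = 2.67e-05) and in SFPQ-ABL1 against MSCV by 0.49 ± 0.10 (adjusted p = 0.0312) on the log2 scale. Mxd3, of the same family, fell by 0.99 ± 0.16 in BCR-ABL1 against MSCV (adjusted p = 0.000499). Mxd1, also of this family, did not go the way of Mxd3 and Mxd4. It had 14.4, 28.7, 29.7 and 29.3 CPM in BCR-ABL1 lines and 8.92 to 11.2 CPM in SFPQ-ABL1 lines. Lines 2 to 4 of BCR-ABL1 lay above every MSCV line, the highest of which had 15.4 CPM, and line 1 lay within the MSCV range. Mga, a MAX partner that can repress E-box genes, rose by 0.62 ± 0.13 in BCR-ABL1 against MSCV (adjusted p = 0.00368).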

How the data were processed

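RNA sequencing libraries of 12 Ba/F3 lines, 4 per group, were analysed from the raw counts per Ensembl gene and per exon that the authors deposited, with no normalization. Per the submitters' processing notes the tools were Subread and featureCounts on mm10. Their versions, whether strand was used, the annotation release and the handling of multiply matched reads are stated in none of the sources used here. The exon counts summed to 18.0% of the gene counts. Symbols came from GENCODE M21 on mm10, which held 55230 of 55471 identifiers.

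Gene counts were filtered with filterByExpr in edgeR 4.0.16 (R 4.3.3), scaled by TMM factors and fitted to all 12 libraries by the quasi-likelihood test (two-sided) with group as the only term. Calls rest on a p under 0.05 after Benjamini-Hochberg adjustment over all 17197 genes tested, and every adjusted p in the text comes from this test unless another tool is named. CPM are TMM-scaled, given per line or as mean ± SD of 4 lines, and intervals are 95% intervals of the fitted log2 fold change. Total counts limit the precision of levels to 1 read in 59355018 to 80616227. Line pairs of a group had a chi-square of 33.1 to 182 per degree of freedom, so none agreed within sampling noise. Pseudogene rows were found by matching transcripts at 90% identity or more over 200 bases. Promoter sequences came from RefSeq on GRCm38.p6. The test was checked on simulated data.

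The genes and lists were chosen with earlier results of these data known. Genes given line by line were the 6 with the smallest p and those with the lowest and highest log2 fold change in each comparison, the 5 RNA polymerase I genes, Ncl, Npm1 and Fbl. Of other lists the 3 genes with the smallest p in each comparison could be named. Myc is named outside this rule. The 21 alternatives were other scaling, no filter, DESeq2 1.42.0, limma-voom (limma 3.58.1), the 8 compared libraries alone, a replicate block, the exon table summed per gene, each line left out, and one chosen after seeing the data that left out line 1 of both MSCV and SFPQ-ABL1.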

Additional observations from a re-analysis of the deposited data

Results flagged for a closer look

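In 15 of the 114 sets of 4 lines (38 genes in 3 groups) the highest line lay far from the other 3 by Dixon's criterion, which chance alone meets in about 1 of 20 sets. In every case it was line 1 of its group. The genes share these lines, so the sets are not independent, and no cause was tested.

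In MSCV line 1 Nop56 stood at 209 CPM (122 to 134 CPM in the other MSCV lines), Dkc1 at 204 CPM (123 to 131), Ddx21 at 286 CPM (164 to 182) and Rrp1b at 76.7 CPM (42.5 to 45.2). In the same line Utp4 stood at 81.7 CPM (52.1 to 56.5), Wdr43 at 160.2 CPM (101 to 102), Polr1b at 61.8 CPM (30.5 to 32.0) and Rrn3 at 67.0 CPM (54.4 to 55.5).

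In SFPQ-ABL1 line 1 Dkc1 stood at 271 CPM (195 to 203 CPM in the other SFPQ-ABL1 lines), Rrp1b at 82.4 CPM (60.6 to 63.8), Rrs1 at 84.4 CPM (53.3 to 57.7), Utp14a at 66.8 CPM (53.4 to 54.2) and Wdr43 at 181 CPM (127 to 134). In BCR-ABL1 line 1 Nolc1 stood at 259 CPM (201 to 211 CPM in the other BCR-ABL1 lines) and Nol6 at 67.0 CPM (54.8 to 56.1).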

How the results depend on the processing

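Across 21 alternatives, 25 to 35 of the 38 genes rose and 0 fell in BCR-ABL1 against MSCV. The matching shares of all tested genes are not given here. The median log2 fold change of the 38 was 0.67 in the exon table, 0.69 to 0.93 with single lines left out, and 0.92 without line 1 of MSCV and SFPQ-ABL1.

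In SFPQ-ABL1 against MSCV the genes called higher among the 38 were 1 by DESeq2, 5 with a replicate block, 3 without both first lines and 0 to 10 with single lines left out. Over all genes 140 rose as reported, against 216 without the filter, 528 by DESeq2, 46 in the 8 libraries alone, 323 with the block, 74 in the exon table, 72 without both first lines and 13 to 227 with single lines left out. Those that fell numbered 168, against 570, 64, 403, 83 and 49 in DESeq2, the 8 libraries, the block, the exon table and without both first lines, and 20 to 240 with single lines left out.

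In SFPQ-ABL1 against BCR-ABL1 15 of the 38 fell, against 7 in the exon table, 23 without both first lines and 4 to 18 with single lines left out. Over all genes the exon table called 1351 higher and 1266 lower.

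Sign changes were met among genes called in neither setting. With single lines left out, the log2 fold change of Polr1e was -0.215 to 0.14 in BCR-ABL1 against MSCV, turning positive without MSCV line 1, and it was 0.127 without both first lines. In SFPQ-ABL1 against MSCV it was -0.0133 to 0.38 for Polr1e and -0.0366 to 0.16 for Ubtf. In SFPQ-ABL1 against BCR-ABL1 it was -0.151 to 0.0214 for Bop1, -0.184 to 0.0496 for Nol6 and -0.186 to 0.0103 for Ubtf with single lines left out, 0.0062 for Bop1 and 0.032 for Nol6 without scaling factors, and 0.069 for Dkc1 and 0.075 for Polr1a in the exon table. The cause of these changes was not tested.

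Line numbers were not taken as pairs, since the labels tie them to no shared batch and the deviations of same-numbered lines correlated at -0.01 to 0.38, not over 0.1 in 5 of 12 cases. In 6 of the 12 a line correlated best with its own number, a hint from the data and not the design. With the replicate block 35 of the 38 rose in BCR-ABL1 against MSCV, 5 rose in SFPQ-ABL1 against MSCV and 20 fell in SFPQ-ABL1 against BCR-ABL1. The lowest gene count of the 38 genes was 522 reads, and the part of depth in the results was not tested. The median of the 38 in SFPQ-ABL1 against MSCV was 0.24 to 0.55 with single lines left out.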
